A study of Mus musculus with 8 samples.

Results

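DNA methylation was compared directly between NIC-5231 tumors treated with 5-azadC alone and tumors treated with C29 alone. NIC-5231 is a mouse cell line derived from an ErbB2-driven mammary tumor, and the cells were grown in the mammary fat pad of young NSG mice, which lack working T, B and NK cells. C29 was given at 10 mg/kg and 5-azadC at 1 mg/kg by intraperitoneal injection every 2 days, in the same mixture of saline, PEG and DMSO that the vehicle group received. The comparison took the 2 libraries of 5-azadC and the 2 of C29, 4 of the 8 libraries in the series. The other libraries, 2 of vehicle and 2 of C29+5-azadC, served as a reference and, in 1 fit, to estimate the spread between libraries. For each library the tumor DNA of 2 mice was pooled, out of 5 mice in a group, so the spread between libraries is the spread between pools. Graft and host are both mouse, so a change in the share of host cells and a change of methylation within tumor cells cannot be told apart in these bulk DNA samples.

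In mammals most DNA methylation sits on the cytosine of the dinucleotide CpG, and DNMT1 copies it onto the new strand after replication. 5-azadC (decitabine) is a cytidine analog that is built into DNA and traps DNA methyltransferases, so that methylation is lost as cells divide. C29 inhibits ERRα, an orphan nuclear receptor that regulates genes of energy metabolism and that the study examined as a regulator of the methionine cycle and of DNA methylation. The contrast thus sets an agent that acts on the methyltransferases against one that acts on a transcription factor. Promoters rich in CpGs are mostly unmethylated in mammalian cells, whereas introns and intergenic DNA are mostly methylated.

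Methylation was measured by reduced representation bisulfite sequencing (RRBS), which reads short genomic fragments cut at a fixed restriction site. The level of a cytosine is the percent of its reads that are methylated. The read counts of single cytosines summed to between 63888872 and 81299065 in the 4 libraries. In these sums a read over several CpGs is counted at each of them. In the unmethylated control DNA 0.232% to 0.329% of reads were methylated, and in the methylated control DNA 97.5% to 97.99%. On the autosomes, 896237 cytosines had 10 or more reads in all 4 libraries and were tested, with a median of 36 to 47 reads in each library.

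Many called regions were short runs of neighboring CpGs. The sequences below show 6 such runs among the widest gaps between the drugs, as plus-strand sequence of the GRCm38 build (RefSeq) with the tested CpGs in capitals. Summed over these CpGs, methylation was lower with 5-azadC than with C29 in the promoters of Tdgf1 (chr9:110946784-110946865), Tekt1 (chr11:72361878-72361962) and Otogl (chr10:107912276-107912424) and in an intron of Card10 (chr15:78797143-78797214). It was higher with 5-azadC in the promoter of Ankrd63 (chr2:118704184-118704327) and in an intron of Ptpro (chr6:137253090-137253177).
Tdgf1: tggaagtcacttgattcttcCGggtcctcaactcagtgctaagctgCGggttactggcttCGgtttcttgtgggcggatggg
Tekt1: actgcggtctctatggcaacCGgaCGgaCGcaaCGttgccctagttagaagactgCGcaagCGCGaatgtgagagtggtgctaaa
Otogl: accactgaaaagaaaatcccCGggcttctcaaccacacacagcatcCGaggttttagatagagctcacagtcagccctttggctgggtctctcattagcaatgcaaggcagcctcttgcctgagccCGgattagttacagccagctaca
Card10: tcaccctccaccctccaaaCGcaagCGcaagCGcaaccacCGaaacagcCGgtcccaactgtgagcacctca
Ankrd63: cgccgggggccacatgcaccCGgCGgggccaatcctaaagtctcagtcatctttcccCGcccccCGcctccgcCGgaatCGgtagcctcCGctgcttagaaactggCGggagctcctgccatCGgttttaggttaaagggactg
Ptpro: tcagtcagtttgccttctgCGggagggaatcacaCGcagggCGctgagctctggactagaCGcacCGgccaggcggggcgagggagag

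Methylation was lower with 5-azadC than with C29 over the tested cytosines as a whole. The mean level was 29.6% and 30.0% in the 5-azadC libraries and 33.7% and 32.6% in the C29 libraries. Both 5-azadC libraries lay below both C29 libraries. The group means were 29.8% ± 0.265 with 5-azadC and 33.2% ± 0.788 with C29 (SD, n = 2 libraries). The difference was -3.37 percentage points and ranged from -4.12 to -2.63 points over the 4 pairs of libraries. A two-sided exact permutation test of 2 libraries against 2 gave p = 0.33, the smallest value this design allows. Weighted by reads, the difference was -2.16 points.

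The difference was small at promoters and larger inside and between genes, as the plot of means by genomic context shows. Promoter cytosines, those in the 1000 bp upstream of an annotated start site, averaged 9.46% and 9.57% with 5-azadC and 10.5% and 9.74% with C29, a difference of -0.595 points. Exons differed by -2.89 points and introns by -5.43 points. Intergenic cytosines were at 53.7% and 54.1% with 5-azadC and at 61.1% and 59.9% with C29, a difference of -6.62 points. Cytosines in repeat-masked bases, mostly copies of mobile elements, differed by -6.00 points and the others by -3.15 points. In none of these classes did the libraries of the drugs overlap.

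**Figure D1:**
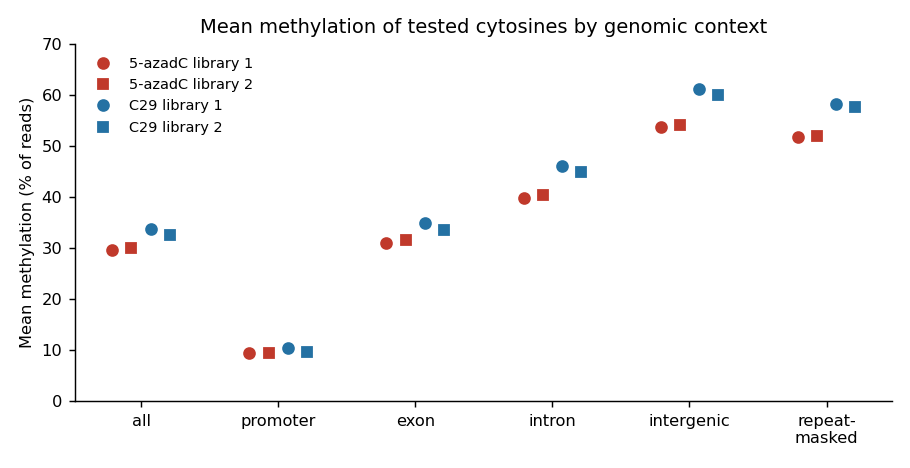
Mean methylation (percent of reads, y axis) of the tested cytosines in each of the 4 libraries, by genomic context (x axis), with red for 5-azadC, blue for C29, circles for library 1 and squares for library 2. Both 5-azadC libraries lie below both C29 libraries in each class, with a difference of -0.595 points at promoters and of -6.62 points in intergenic DNA.

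The difference was largest where CpGs were sparse. Where the 200 bp around a cytosine held 1 to 3 CpGs, the means were 57.0% and 57.6% with 5-azadC and 67.02% and 65.9% with C29, a difference of -9.13 points. It was -7.67 points at 4 to 7 CpGs, -4.43 points at 8 to 11 and -1.23 points at 12 to 15. At 16 to 19 CpGs it was -0.104 points and at 20 or more it was 0.0901 points, and in these dense classes the libraries of the drugs overlapped. Distance from the nearest start site gave a like order, from -0.741 points within 1000 bp to -7.84 points in the class farthest from any start.

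The vehicle libraries took no part in the contrast and were used to sort 722134 cytosines by their level without drug. Below 10% with vehicle, levels were 1.91% and 1.86% with 5-azadC and 2.25% and 2.21% with C29. Above 90% with vehicle, levels were 81.3% and 82.4% with 5-azadC and 91.1% and 89.3% with C29, a difference of -8.34 points. In relative terms the classes were close to each other: the 5-azadC mean was between 84.4% and 90.7% of the C29 mean in all 10 classes.

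**Figure D2:**
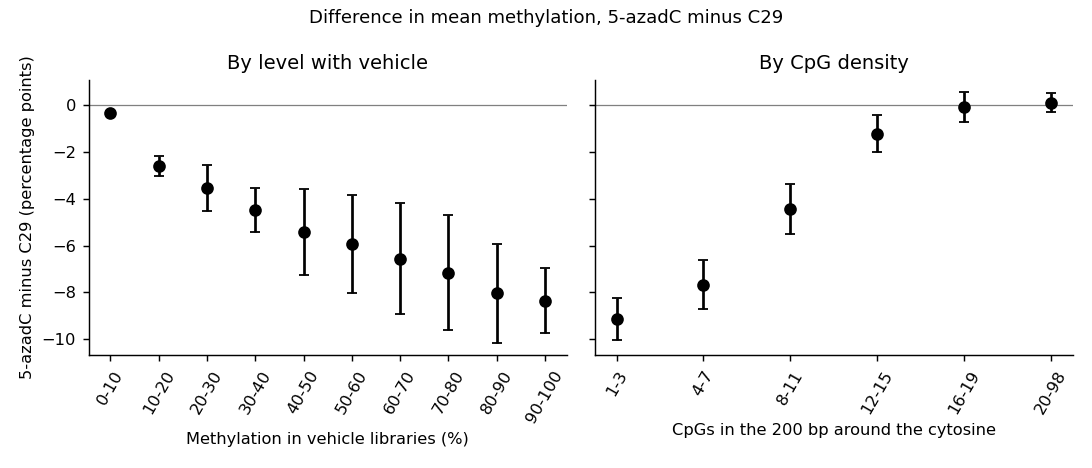
Difference in mean methylation, 5-azadC minus C29 (percentage points, y axis), by the level in the vehicle libraries (left, percent) and by the number of CpGs in the 200 bp around the cytosine (right). Points are differences of group means and bars run from the lowest to the highest of the 4 pairs of libraries; the difference reaches -8.34 points in the most methylated class and -9.13 points at 1 to 3 CpGs, and the bars cross 0 at 16 or more CpGs.

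Density and level were also examined together. Among cytosines at 80% or more with vehicle, the difference was -10.6 points with 1 to 3 CpGs in 200 bp, -7.46 points with 8 to 11 and -5.01 points with 12 to 15. With 16 or more CpGs the levels were 75.7% and 77.5% with 5-azadC and 78.6% and 71.7% with C29, so that the drugs overlapped. Within this methylated class promoters differed by -5.71 points and introns by -9.42 points. Among cytosines at 20 to 80% with vehicle, promoters were at 37.6% and 38.2% with 5-azadC and at 41.9% and 37.3% with C29, again overlapping. The bases beside the CpG moved the difference less than density did. At 80% or more with vehicle it was -8.31 points with G or C on both sides of the CpG and -9.15 points with A or T on both sides.

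The distribution of levels differed as well. Cytosines over 90% methylated made up 16.5% and 15.0% of those tested with 5-azadC and 22.6% and 21.3% with C29. Cytosines between 10% and 90% made up 25.04% and 28.3% with 5-azadC and 21.5% and 22.3% with C29. In both classes the drugs did not overlap. Cytosines under 10% made up 58.5% and 56.7% with 5-azadC and 55.9% and 56.4% with C29.

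At single cytosines, libraries of the same drug were about as far apart as libraries of different drugs. The mean absolute difference was 13.2 points between the 5-azadC libraries, 11.6 points between the C29 libraries and 12.5 to 13.4 points between a 5-azadC and a C29 library. Of the tested cytosines 21.2% differed by more than 25 points between the 5-azadC libraries, 18.5% between the C29 libraries and 20.1% to 21.6% across drugs.

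Regions were compared with the logistic likelihood-ratio test that methylKit applies by default, which takes reads as the only source of error. A region was called where the pooled reads of the drugs differed by 25 points or more with a Benjamini-Hochberg adjusted p (q) under 0.01. Of 75380 tiles of 1000 bp with 3 or more tested cytosines, 5048 were called lower with 5-azadC (6.7% of tiles) and 762 higher (1.01%). Apart from any test, both 5-azadC libraries lay below both C29 libraries in 22553 tiles (29.9%) and above both in 5271 (6.99%). The median tile differed by -3.15 points. Of the tiles called lower 4243 had libraries that did not overlap between the drugs, and of those called higher 534. The smallest difference called was 25 points, and the largest that passed q but not the minimum was 24.9988 points.

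No region was called once the spread between libraries entered the test. The overdispersion-corrected F test of methylKit called 0 tiles, with a lowest adjusted p of 0.742 and 5044 tiles at an unadjusted p under 0.05 (4319 lower, 725 higher). The quasi-likelihood test of edgeR on the 4 libraries called 0 tiles, with a lowest adjusted p of 0.827 and 4108 tiles at an unadjusted p under 0.05 (3412 lower, 696 higher). With the spread estimated from all 8 libraries edgeR called 0 as well, with 3303 tiles at an unadjusted p under 0.05 (2790 lower, 513 higher). Regions named below are therefore given by their level in each library.

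Tiles with few cytosines held most calls. Of tiles with 3 or 4 cytosines 11.5% were called lower and 1.68% higher, of those with 5 to 9 cytosines 4.83% and 0.719%, and of those with 20 or more 0.0296% and 0.0494%. The share of tiles whose libraries did not overlap changed less, from 32.7% below and 5.51% above at 3 or 4 cytosines to 15.9% below and 13.4% above at 20 or more. Neighboring cytosines were often covered by the same number of reads. In called tiles the tested cytosines spanned a median of 93 bp, and 91.0% of neighbors within 50 bp on a strand had read numbers within 5% of each other in all 4 libraries. In the Tdgf1 promoter, for example, each of the 3 cytosines had 33 reads in C29 library 1. The summed reads of a tile are thus not separate molecules.

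**Figure D3:**
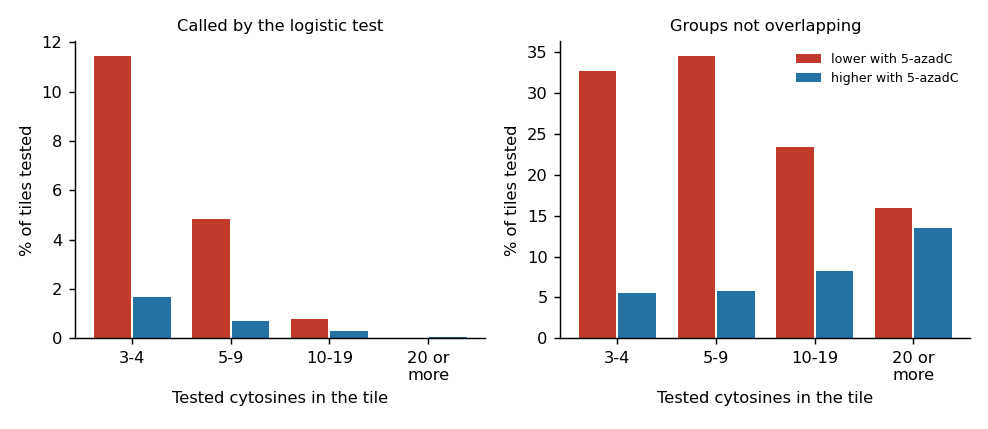
Percent of tiles tested (y axes) that were called by the logistic test (left) or whose libraries did not overlap between the drugs (right), by the number of tested cytosines in the tile (x axes), with red bars for lower and blue bars for higher with 5-azadC. Calls lower with 5-azadC go from 11.5% at 3 or 4 cytosines to 0.0296% at 20 or more, and the share of tiles that lie below without overlap goes from 32.7% to 15.9%.

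Tiles away from promoters were called more often than tiles at promoters. Of 51419 tiles that overlap no promoter 8.60% were called lower and 1.17% higher, with a median difference of -6.54 points. Of 23961 tiles that overlap a promoter 2.61% were called lower and 0.664% higher, with a median of -0.0748 points. By level with vehicle, 0.842% of tiles under 20% were called lower, 10.9% of those at 60 to 80% and 7.56% of those at 80% or more.

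The other 4 libraries show where called tiles stood with vehicle and with both drugs. The tiles called lower had a median level of 73.9% with vehicle and 64.1% with C29+5-azadC, beside 48.6% with 5-azadC and 82.3% with C29. The tiles called higher had a median level of 60.3% with vehicle and 52.0% with C29+5-azadC, beside 69.4% with 5-azadC and 36.0% with C29. The single-drug levels follow from the calls and are given as a description. Pooled methylation was lower with both drugs than with vehicle in 69.3% of the 4202 tiles called lower and in 59.1% of the 516 tiles called higher that had reads in all 8 libraries, against 64.0% of all 69615 such tiles. The median change was -7.87 points in tiles called lower, -4.76 points in tiles called higher and -2.32 points over all. In tiles at 20 to 80% with vehicle the shares were 62.9%, 57.4% and 65.1%.

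**Figure D4:**
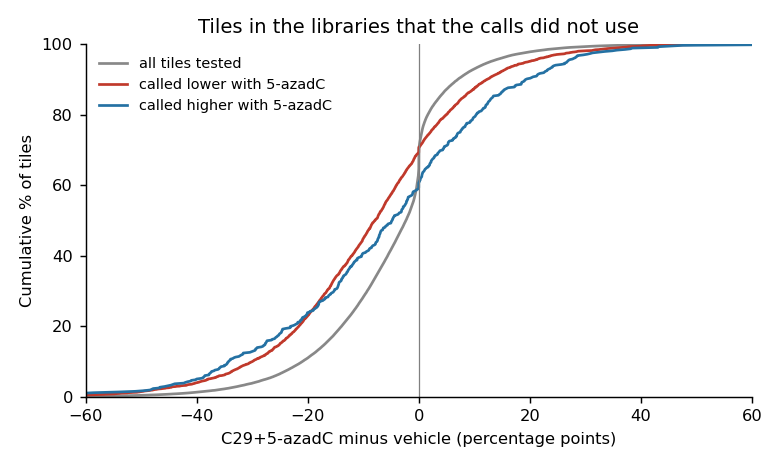
Cumulative percent of tiles (y axis) by the difference between C29+5-azadC and vehicle (percentage points, x axis), for all tiles tested (grey) and for tiles called lower (red) or higher (blue) with 5-azadC than with C29. The share of tiles below 0 is 64.0% for all tiles, 69.3% for tiles called lower and 59.1% for tiles called higher.

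Promoters were compared gene by gene over the 1000 bp upstream of any annotated start site, alternative starts inside the gene included. Of 14391 promoters 205 were called lower with 5-azadC (1.42%) and 72 higher (0.5%). Both 5-azadC libraries lay below both C29 libraries in 2394 promoters (16.6%) and above both in 1468 (10.2%), and the median promoter differed by 0. The F test called 0 promoters, with a lowest adjusted p of 0.853 and 673 at an unadjusted p under 0.05, and edgeR on 4 libraries called 0, with 569 at an unadjusted p under 0.05. The promoters named first had the widest gaps between the drugs among 101 lower and 35 higher promoters of protein-coding genes with 50 or more reads in each library. Since they were ranked by that gap, its size is a description. Levels are sums over cytosines, and those of vehicle and C29+5-azadC rest on whichever of the cytosines had reads.

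Tdgf1, which encodes Cripto, a co-receptor for Nodal, had the widest gap. Its 3 cytosines (chromosome 9, 110946804 to 110946844), upstream of the outermost start, were at 0% and 38.1% with 5-azadC and at 100% in both C29 libraries. In each reference group 1 library had reads there, at 63.0% with vehicle and 100% with C29+5-azadC. Tekt1, a tektin of cilia and flagella, was at 31.7% and 0% with 5-azadC and at 95.5% and 80.3% with C29 over 7 cytosines, and its covered vehicle library was at 25.8%. Otogl, an inner ear matrix protein, was at 35.8% and 28.1% with 5-azadC and at 76.9% and 77.0% with C29, with vehicle at 44.1% and 70%. The vehicle level was thus near 5-azadC at Tekt1 and between the drugs at Otogl.

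At other promoters vehicle stood near C29. Zfp804a, a zinc finger gene, was at 7.37% and 39.1% with 5-azadC, 80% and 83.3% with C29, and 77.3% and 85.5% with vehicle. Cd55b, of the complement regulator CD55 family, was at 34.9% and 49.9% with 5-azadC, 93.4% and 88.7% with C29, and 84.5% and 77.6% with vehicle. Fam83e was at 19% and 46.7% with 5-azadC, 82.1% and 86.0% with C29, and 93.4% and 76.2% with vehicle. In all 3 the vehicle libraries lay above both 5-azadC libraries. With C29+5-azadC the levels were 40% (10 reads) and 91.7% at Zfp804a and 70.2% and 100% (20 reads) at Cd55b. At Fam83e they were 56.1% and 0% (20 reads). The call at Zfp804a was lost with 5 reads (-14.5 points) and with strands summed (-21.4 points).

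Faim2, an inhibitor of Fas-induced cell death, was at 33.9% and 19.4% with 5-azadC, 65.5% and 69.1% with C29, and 48.5% and 57.7% with vehicle. Ppp1r15a, the stress-induced GADD34 subunit of a phosphatase of eIF2α, was at 0% and 21.1% with 5-azadC, 53.1% and 70.4% with C29, and 38.4% and 52.7% with vehicle. At both genes vehicle lay between the drugs. Sulf1, a sulfatase that edits heparan sulfate, was at 24.8% and 13.9% with 5-azadC, 61.4% and 63.1% with C29, and 76.1% and 30.1% with vehicle. Exoc3l was at 16.4% and 35.4% with 5-azadC, 78.7% and 71.5% with C29, and 38.6% and 69.4% with vehicle, and with unweighted means its difference was -31.5 points. Its drugs were apart only at cytosine 105296246, at 0% in both 5-azadC libraries and at 72.1% and 45.7% with C29. At Sulf1 and Faim2 the cytosines belong to starts far apart, from 12718262 to 12836024 on chromosome 1 and from 99511257 to 99527742 on chromosome 15. At the Sulf1 cytosine 12836024 the drugs overlapped, at 100% and 31.3% with 5-azadC and 0% and 72.4% with C29. The Sulf1 levels are thus sums over starts that differ. The tested cytosines of Tekt1, Cd55b, Sulf1, Ppp1r15a and Faim2 lie upstream of alternative starts, downstream of the outermost start of the gene. So do those of Slc28a3 and Tbx18. Among genes named further on, the same holds for Tet1, Oas3, Spdef, Tdrd9, Col1a1, Zfp827, Pcdhgc4, Dnmt1, Dnmt3a and Tet3. For Igf2r and Abcb1b it holds for part of the cytosines, up to 18381 and 26293 bp downstream of the outermost start.

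Among promoters higher with 5-azadC, the widest gap was at Slc28a3, which encodes the concentrative nucleoside transporter CNT3. Its 3 cytosines (chromosome 13, 58558301 to 58558438) were at 92.8% and 96.2% with 5-azadC and at 28.4% and 44.4% with C29. Vehicle was at 58.3% and 45.9% and C29+5-azadC at 37.0% and 43.4%, so that the 5-azadC libraries lay above the other 6. The cytosines lie upstream of an alternative start, 52439 to 52576 bp downstream of the outermost one, and with strands summed the difference went from 56.3 to 34.5 points.

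Slc35d2, a nucleotide sugar transporter, was at 53.5% and 42.5% with 5-azadC, 6.27% and 0% with C29, and 52.3% and 47.6% with vehicle. With 20 reads, which leaves only its plus-strand cytosines, its difference went from 42.9 to 81.4 points. At the minus-strand cytosine 64129344, for example, the drugs overlapped, at 0% and 37.0% with 5-azadC and 20% and 0% with C29. Hoxb1, a homeobox gene of the hindbrain, was at 78.2% and 81.6% with 5-azadC, 48.8% and 48.4% with C29, and 71.3% and 67.4% with vehicle. At both genes the summed vehicle level was nearer to 5-azadC, but single cytosines differed. At the plus-strand cytosines of Slc35d2, vehicle library 1 was at 0% to 14.3% with 7 reads and library 2 at 52% to 53.1%. There 5-azadC was at 45.2% to 100% and C29 at 0%. At the Hoxb1 cytosines 96365896 and 96365928, vehicle library 2 was at 37.5%, beside 16.3% to 36.7% with C29. The call at Hoxb1 was lost with 5 reads (6.99 points), with strands summed (6.71 points) and with unweighted means (23.7 points). Ltb, lymphotoxin beta, was at 75.2% and 71.2% with 5-azadC, 26.7% and 39.4% with C29, and 47.1% and 37.6% with vehicle, here nearer to C29. Tbx18, a T-box transcription factor, was at 96.7% and 74.4% with 5-azadC, 42.1% and 17.4% with C29, and 67.7% and 75.3% with vehicle. Ankrd63 was at 52.4% and 56.4% with 5-azadC and 11.05% and 18.8% with C29 over 9 cytosines. At the first of them 5-azadC was at 0% in both libraries and C29 at 7.14% and 0%, and the call was lost with 5 reads (23.2 points) and with strands summed (24.6 points). Vehicle was at 35.6% and 88.6%, the latter without reads at the first 4 cytosines.

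**Figure D5:**
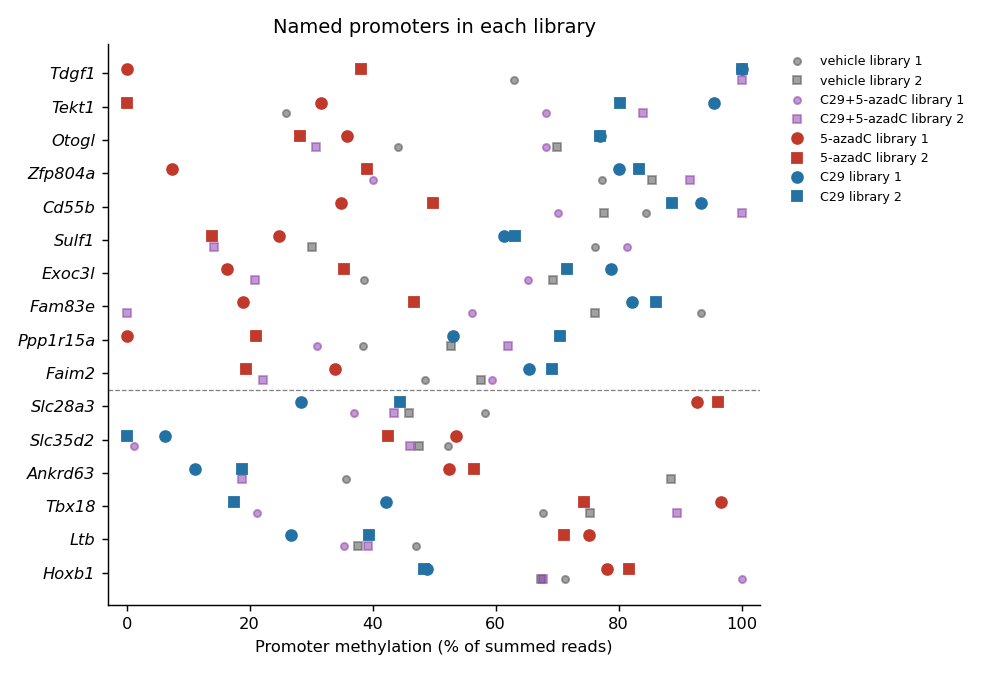
Promoter methylation (percent of summed reads, x axis) of the 16 promoters with the widest gaps (y axis) in each library, with red for 5-azadC, blue for C29, grey for vehicle, purple for C29+5-azadC, circles for library 1 and squares for library 2; the dashed line divides promoters lower with 5-azadC (above) from those higher (below). Red and blue are apart in each row because the promoters were chosen so. The grey points lie near blue at Zfp804a (77.3% and 85.5%) and, summed over both strands, near red at Slc35d2 (52.3% and 47.6%). At the plus-strand cytosines of Slc35d2 the vehicle libraries were at 0% to 14.3% and at 52% to 53.1%.

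Away from promoters, tiles were named by the same gap. In an intron of Card10, a scaffold of NF-κB signaling, 5 cytosines (chromosome 15, 78797163 to 78797193) were at 26.0% and 0% with 5-azadC and at 100% in both C29 libraries, with C29+5-azadC at 90.8% and 0%. An exon of Caskin2 was at 31.7% and 0% with 5-azadC and at 100% in both C29 libraries, a difference of -85.3 points that was -55.3 points with strands summed. An intron of Trak1, an adaptor of mitochondrial transport, was at 0% and 1.25% with 5-azadC and 61.5% and 62.2% with C29. Its difference lay in 2 of 3 cytosines, and at the first of them both C29 libraries and the vehicle library with reads were at 100% and both 5-azadC libraries at 0%.

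A tile 65219 bp from Sash1 was at 0% in both 5-azadC libraries and at 85.2% and 70% with C29, a difference of -79.0 points that was -51.9 points with 5 reads. A tile 32690 bp from Xpa, a gene of nucleotide excision repair, was at 30.3% and 32.4% with 5-azadC and 100% and 93.0% with C29. A repeat in an intron of Tldc2 was at 16.7% and 33.3% with 5-azadC and at 100% in both C29 libraries, with no reads in the other groups.

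In the other direction, 10 cytosines (chromosome 1, 163308873 to 163308908) lay in an exon where Prrx1, a homeobox gene of mesenchyme, and Gm37644 are annotated. Which gene the exon belongs to was not determined, and 90% of these cytosines were repeat-masked. They were at 100% in both 5-azadC libraries and at 10.0% and 9.50% with C29. The covered vehicle library was at 100%. An intron of Ptpro, a receptor tyrosine phosphatase, was at 100% in both 5-azadC libraries and at 20% and 0% with C29. A tile 24375 bp from Atp5mpl was at 100% in both 5-azadC libraries and 28.1% and 2.22% with C29, and at 0% in the vehicle and C29+5-azadC libraries, with 1 read at each cytosine in vehicle library 1. A tile 141476 bp from Adgrb3 was at 81.8% and 87.8% with 5-azadC and 24.6% and 27.6% with C29. At its first cytosine both 5-azadC libraries were at 100%, both C29 libraries and the vehicle library with reads at 0%, and the C29+5-azadC libraries at 0% and 100%.

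Promoters of the drug targets and of genes the study examined were not called. Dnmt1, the maintenance methyltransferase, was at 0.931% and 0% with 5-azadC and 0% and 0.145% with C29. Esrra, which encodes ERRα, was at 0.913% and 0% with 5-azadC and 1.78% and 0.528% with C29. Both were nearly unmethylated in the 4 libraries. Dnmt3a, a de novo methyltransferase, was at 3.39% and 6.06% with 5-azadC and 6.41% and 9.53% with C29. Tet3, an oxidase of methylcytosine, was at 1.28% and 2.88% with 5-azadC and 2.14% and 0.578% with C29. Mat2a, which makes S-adenosylmethionine, was at 1.37% and 0.179% with 5-azadC and 0.343% and 0% with C29. Irf4, a transcription factor of lymphoid cells, was at 26.9% and 34.0% with 5-azadC and 37.9% and 21.1% with C29, so that the drugs overlapped. The promoter of Ahcy had fewer than 3 tested cytosines.

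Gene lists are read against all promoters tested, of which 1.42% were called lower and 0.5% higher. Of 18 promoters of DNA methylation and demethylation enzymes 1 was called lower, that of Tet1, an oxidase of methylcytosine, at 6.02% and 31.7% with 5-azadC and 53.8% and 36.5% with C29. With 5 reads its difference was -18.8 points and the call was lost. Of 11 promoters for uptake and metabolism of 5-azadC, Slc28a3 was called higher and Abcb1b, a drug efflux pump, lower. Abcb1b was at 55.3% and 6.55% with 5-azadC and 82.9% and 26.7% with C29, so its libraries overlapped. Without 5-azadC replicate 2 the difference was 1.76 points. These levels are sums over starts far apart. Cytosine 8824440 was at 100% in all 4 libraries, with 63 and 23 reads with 5-azadC and 70 and 23 with C29. At its other cytosines, from 8798126 to 8798175, both 5-azadC libraries were at 0% and the C29 libraries between 0% and 84%. Among 12 promoters of ERR receptors and coactivators, 36 of oxidative metabolism, 16 of the methionine and folate cycle and 22 of autophagy, 0 were called by the logistic test or the F test. The median differences of these 4 lists lay between -0.000162 and 0.199 points. Their median levels with C29 were, in that order, 6.29%, 0.168%, 0.870% and 0.624%. A promoter at such a level cannot be lower by 25 points, so it could not be called lower.

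Of 26 promoters of germline genes, with a median level of 81.7% with C29, 1 was called lower. This was Tdrd9, a gene of piRNA biology, at 42.0% and 51.9% with 5-azadC and 52.1% and 92.4% with C29. Its cytosines belong to starts far apart, from 112025306 to 112062315 on chromosome 12. The drugs differed only at the last, at 80.8% and 52.5% with 5-azadC and 100% and 99.3% with C29. Of 32 promoters of interferon response and antigen presentation, 1 was called lower, that of the antiviral enzyme Oas3, at 71.4% and 71.1% with 5-azadC and 100% and 97.6% with C29, and vehicle was at 100% in both libraries. Of 41 promoters of imprinted genes, Igf2r was called lower over 19 cytosines at 30.1% and 21.2% with 5-azadC against 54.9% and 67.5% with C29. Vehicle was at 33.3% and 48.2%. Its cytosines from 12751283 to 12751364 belong to an alternative start inside the gene. There the drugs overlapped at 12751283, 12751325 and 12751364 and not at 12751308 and 12751326. In the same list Peg13 was called higher with overlapping libraries, at 47.9% and 70.5% with 5-azadC and 50.9% and 22.4% with C29. Of 36 promoters of tumor suppressors often methylated in breast cancer 0 were called by either test, with a median difference of 0.143 points. Their median level with C29 was 8.55%.

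Of 32 Hox promoters, Hoxb1 was called higher and Hoxa13 lower, the latter at 0% and 37.4% with 5-azadC and 71.6% and 38.6% with C29. Of 16 ETS factor promoters 1 was called lower, that of Spdef, a factor of secretory epithelium, at 38.5% and 56.4% with 5-azadC and 72.5% and 86.4% with C29. Of 205 promoters of Zfp genes whose symbol ends in a number, which leaves out Zfp804a, 0 were called lower and 2 higher by the logistic test, and 0 by the F test. Zfp583 was at 82.2% and 69.3% with 5-azadC and 58.5% and 18.8% with C29. Zfp827 was at 63.4% and 94.1% with 5-azadC and 53.9% and 38.6% with C29. With an unweighted mean of its cytosines the difference turned to -5.23 points. These cytosines belong to starts far apart, from 79028555 to 79118268 on chromosome 8. The first was at 0% in all 4 libraries, with 35 and 22 reads with 5-azadC and 95 and 112 with C29. At the others no 5-azadC library lay above a C29 library, except at 79118116, where C29 library 2 was at 0%. Of 8 clustered protocadherin promoters Pcdhgc4 was called higher, at 100% and 73.4% with 5-azadC and 100% and 13.5% with C29, and without C29 replicate 2 the difference was -20.2 points. Among 33 nuclear receptor promoters, 25 of mammary lineage and hormone receptors and 8 of transcription factors of the study, 0 were called by either test. Their median levels with C29 were, in that order, 3.02%, 8.155% and 10.5%.

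Most of these list calls were lost without 1 library. Without 5-azadC replicate 1 this held for Tet1 (-14.4 points), Spdef (-19.3), Tdrd9 (-23.9), Hoxa13 (-11.02) and Col1a1 (24.6). Without 5-azadC replicate 2 it held for Peg13 (18.7) and Zfp827 (17.7), beside Abcb1b. Without C29 replicate 1 it held for Tet1 (-23.2), Hoxa13 (-19.1) and Abcb1b (-8.24). Without C29 replicate 2 it held for Tdrd9 (-2.92), Peg13 (14.2), Zfp583 (16.3) and Col1a1 (20.01), beside Pcdhgc4.

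Of 30 promoters of epithelial and mesenchymal identity 1 was called, that of Col1a1, a fibrillar collagen, which was higher at 40.7% and 32.2% with 5-azadC and 16.2% and 0% with C29. Of its 5 cytosines 3 were between 0% and 2.13% in all 4 libraries. At the other 2, both 5-azadC libraries were between 91.4% and 100%, C29 library 1 was at 100% with 13 reads and C29 library 2 at 0% with 10 reads. With 20 or more reads at each cytosine the difference was -0.32 points. Col1a1 is also 1 of 4 fibroblast markers tested. Of the others, Col1a2 was at 18.1% and 43.2% with 5-azadC and 28.1% and 24.6% with C29, and Pdgfra and Pdgfrb lay between 0% and 13.6%. Of 5 mammary epithelial markers tested 0 were called, with Cdh1 at 2.31% and 7.49% with 5-azadC and 2.84% and 8.06% with C29, and Erbb2 at 17.0% and 22.5% with 5-azadC and 14.4% and 19.1% with C29. Epcam, Cldn3 and Cldn7 lay between 0% and 16.4%. The single endothelial marker tested, Kdr, lay between 0% and 4.13%. The part of host cells in the differences was not tested.

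Gene bodies, from start to end and outside the promoter, were called in a larger share than promoters. Of 19705 bodies 503 were called lower with 5-azadC (2.55%) and 72 higher (0.365%). Both 5-azadC libraries lay below both C29 libraries in 6180 bodies (31.4%) and above both in 1449 (7.35%), and the median body differed by -2.57 points. The F test called 0, with a lowest adjusted p of 0.708 and 1356 at an unadjusted p under 0.05 (1185 lower, 171 higher). On 4 libraries edgeR called 0, with a lowest adjusted p of 0.759 and 1188 at an unadjusted p under 0.05 (989 lower, 199 higher).

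The bodies of listed genes that were called are named here after their values were seen. Of 13 bodies of ERR receptors and coactivators 1 was called lower. This was Ppargc1a, which encodes the ERRα coactivator PGC-1α, at 60.6% and 73.5% with 5-azadC, 94.1% and 93.9% with C29, and 93.7% and 86.8% with vehicle over 11 cytosines. Of 38 bodies of oxidative metabolism Timm44, of mitochondrial protein import, was called lower at 66.1% and 62.6% with 5-azadC, 99.2% and 100% with C29, and 100% and 99.4% with vehicle. Zfp57, a factor that protects imprints, was called lower at 76.0% and 52.5% with 5-azadC, 100% and 99.2% with C29, and 98.9% and 100% with vehicle. Tead2, a partner of YAP, was called lower at 83.1% and 60.8% with 5-azadC, 97.3% and 100% with C29, and 100% in both vehicle libraries. At these 4 bodies both vehicle libraries lay above both 5-azadC libraries.

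Of 38 bodies of mammary lineage and hormone receptors 1 was called lower and 2 higher. Acta2, the smooth muscle actin of myoepithelium, was lower at 65.3% and 81.8% with 5-azadC and 100% in both C29 libraries. Prlr, the prolactin receptor, was higher at 22.5% and 62.6% with 5-azadC and 0.654% and 7.56% with C29. Ehf, an epithelial ETS factor, was higher at 57.0% and 63.3% with 5-azadC and 0% and 56.6% with C29. Of 43 germline bodies Tcl1 was called lower, at 46.9% and 43.8% with 5-azadC and 73.8% and 83.5% with C29. The bodies of Hoxd13, Zfp37, Zfp568, Zfp644 and Zfp811 were called lower too, and those of Hoxd1 and the imprinted gene Mkrn3 higher, the last with overlapping libraries.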

How the data were processed

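Per the labels, the authors used FastQC 0.11.8, Trim Galore 0.4.1, Bismark 0.20.0 and methylKit 1.7.0 with mm10/GRCm38. The deposited values, given for each CpG cytosine and strand, are a read count and the methylated fraction of those reads, neither normalized by the authors. Fraction times count was rounded to whole methylated reads.

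Autosomal cytosines with 10 or more reads in all 4 libraries and below the highest 0.1% of coverage in each were kept, strands apart. Reads were summed over tiles, promoters and gene bodies (GENCODE M21) with 3 or more cytosines. CpG density, repeat masking and sequences came from RefSeq GRCm38.p6. The logistic and F tests were computed in Python 3.11.15 with numpy 2.4.6 and scipy 1.17.1, and edgeR 4.0.16 ran in R 4.3.3 on methylated and unmethylated counts. All were tested on simulated data. Tests on reads cover counting error only, since PCR copies of a molecule could not be recognized.

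Named were the 10 lower and 6 higher promoters, and 6 lower and 4 higher tiles outside promoters, with the widest gap between the nearest libraries of the drugs among calls with 50 or more reads in each library, called list members, and Esrra, Dnmt1, Irf4, Dnmt3a, Tet3, Mat2a and Ahcy. Some results are not reported here. The comparison, lists and names were chosen with earlier results of these data known. Alternatives changed coverage, strands, the test, the minimum difference, weights, region definitions, the replicate block and the libraries used.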

Additional observations from a re-analysis of the deposited data

How the results depend on the processing

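The mean difference of -3.37 points was lower with 5-azadC in each alternative, from -3.68 points with strands summed to -2.16 points weighted by reads, and from -3.93 to -2.81 points with a library left out. Called were 5810 tiles, 277 promoters and 575 bodies in the report. The F test and both edgeR fits called 0 of each. A minimum difference of 10 points gave 27016 tiles, 1693 promoters and 4888 bodies, and 20 reads gave 2678 tiles and 161 promoters. Tiles numbered 26497 with at least 1 cytosine and 1347 with at least 5, and protein-coding genes alone gave 164 promoters. With a library left out there were 8182 to 9832 tiles, 408 to 514 promoters and 878 to 1046 bodies. The counts moved by over 1.5 times without 5-azadC replicate 2 (9832 tiles, 514 promoters, 1046 bodies), C29 replicate 1 (461 promoters, 902 bodies), C29 replicate 2 (450 promoters, 964 bodies) and 5-azadC replicate 1 (878 bodies). Mean reads per cytosine in place of sums, chosen after seeing the data, gave 5496 tiles, 216 promoters and 487 bodies. Of called tiles 86.9% were lower with 5-azadC, 87.8% with 20 reads and with strands summed, 83.9% at 10 points and 75.8% to 83.98% with a library left out. At 10 points, 72.6% of tiles called lower and 64.4% of those called higher were below vehicle with both drugs. The sign turned for Col1a1 (-0.32 points) and Tet3 (-0.0345) with 20 reads and for Zfp827 (-5.23) and Tet3 (-0.60) with unweighted means. With a library left out, Dnmt1 ranged from -0.0625 to 0.869 points, Mat2a from -0.022 to 1.17, Abcb1b from -64.4 to 1.76, Irf4 from -6.84 to 10.0 and Pcdhgc4 from -20.2 to 71.8. The cause was not tested.

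No label pairs libraries with the same number, and over tiles such libraries did not deviate together (r = -0.00674 across tiles, which are not independent). The replicate block gave 5795 tiles, 277 promoters, 575 bodies and a mean difference of -3.37 points.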

Other observations

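Mean methylation was lower with 5-azadC on each of the 19 autosomes, by -2.77 points on chromosome 11 to -3.76 points on chromosome 17, and the libraries of the drugs did not overlap on any of them. Promoter and body were both called lower in 4 genes, Gm4598, Got1l1, Igsf9 and Topaz1, and both higher in 1, Rhbdl1. These genes were named after their values were seen.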
